A study of Mus musculus with 18 samples.

Results

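The acyl-CoA thioesterases examined here are the 10 mouse genes *Acot1*, *Acot2*, *Acot3*, *Acot4*, *Acot7*, *Acot8*, *Acot9*, *Acot11*, *Acot12* and *Acot13*, chosen by gene symbol from the 55487 genes in the count data. RNA-sequencing was performed on whole-thickness ileum of 18 C57BL6/J mice fed chow, each giving 1 library, of which 6 were controls, 6 IEC-*Ppara* heterozygous and 6 IEC-*Ppara* homozygous. IEC-*Ppara* mice carry *Villin-CreERT2* and a conditional CAG-*Ppara*,-*EGFP* transgene at the *Col1a1* locus, on 1 allele in heterozygous and on both alleles in homozygous animals, and control littermates carry the transgene without *Villin-CreERT2*. All mice received 3 daily injections of tamoxifen (100 mg/kg), were 8 to 13 weeks of age and were collected 2 weeks after tamoxifen. Because the *Villin* promoter drives Cre in epithelial cells, the transgene is switched on in the epithelium, while the libraries also hold muscle, stroma and immune cells. As the controls have no CreERT2, its presence and the overexpression of *Ppara* cannot be told apart. There were 3 females and 3 males among the controls, but 2 females and 4 males in either IEC-*Ppara* group.

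Acyl-CoA thioesterases cleave the bond between an acyl chain and coenzyme A, and release the free acid and CoA, so they set the balance between activated and free fatty acids in each compartment of the cell. The type I enzymes, encoded by *Acot1* to *Acot6* in the mouse, have an α/β-hydrolase fold and lie in 1 gene cluster, whereas the type II enzymes have a hotdog fold and are spread over the genome. Several of these genes are known in liver as targets of PPARα, a nuclear receptor for fatty acids that binds DNA together with RXR.

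The total count of a library lay between 38528522 and 50376371. *Ppara*, the gene on the transgene, spanned 25.8 to 47.4 CPM, or counts relative to the library total, in controls, against 107 to 196 with 1 transgene allele and 184 to 279 with both, and every IEC-*Ppara* library lay above every control. Epithelial markers were abundant, with a summed level of 15706 to 21224 CPM over 10 genes in the 18 libraries. Over 13 cell type lists with 116 markers, of which those past the filter were tested, 1 marker, *Ret* in the list of enteric neurons and glia (named after its value was seen; list median log2 fold change 0.59 over 7 tested), changed in homozygous mice and 0 in heterozygous mice by edgeR, with 27 and 9 at an unadjusted p under 0.05, beside 8.06% and 5.29% of all genes, and 3 and 0 called by DESeq2. Of these, 12 of 12 B cell markers (median log2 fold change -3.03) and 7 of 7 T cell markers (median -0.93, 2 called by DESeq2) had such a p in homozygous mice, as did 0 of 12 (median -1.48) and 6 of 7 (median -0.71) in heterozygous mice. Summed T cell markers had medians of 74.1 CPM in controls, 36.0 in heterozygous and 31.9 in homozygous mice, with the lowest control at 31.9 and the highest heterozygous and homozygous libraries at 59.2 and 46.4 CPM, so the ranges overlapped, and the part of T cells in the results on thioesterases was not tested. Summed B cell markers were at 106 to 646 CPM in control replicates 2 and 3, heterozygous replicate 2 and homozygous replicate 1, and at 13.8 to 24.9 CPM in the other libraries. Summed smooth muscle markers spanned 505 to 5755 CPM in controls, whereas heterozygous libraries held 637 to 4202 and homozygous libraries 3905 to 9099 CPM. In such tissue libraries, a change in the number of cells of a type and a change in RNA per cell cannot be told apart.

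By edgeR, *Acot12* was the 1 thioesterase gene of the set past the threshold, and it rose in both IEC-*Ppara* groups, by 4.71-fold in homozygous and 4.17-fold in heterozygous mice. *Acot2* and *Acot1* had the next largest fold changes among the members past the expression filter, between 1.79-fold and 2.33-fold, without passing the threshold in edgeR; DESeq2 called *Acot2* in both groups and *Acot1* in heterozygous mice. *Acot4* and *Acot8* had values of 1.11-fold to 1.27-fold, and those of *Acot7*, *Acot9*, *Acot11* and *Acot13* were between 0.94-fold and 1.12-fold. *Acot3* was detected at too few counts to pass the filter of more than 3 CPM in at least 4 libraries.

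In numbers, 1 of the 9 members tested had an adjusted p under 0.05 by edgeR's quasi-likelihood test in homozygous mice against control, beside 0.411% of all 12645 protein-coding genes tested. In heterozygous mice against control the count was again 1 of 9, beside 0.293% of all genes. The log2 fold change was above 0 for 7 of the 9 members in homozygous mice and for 9 of 9 in heterozygous mice, against 48.1% and 47.5% of all genes. In heterozygous mice, however, *Acot7*, *Acot9* and *Acot13* were at 0.0020, 0.0020 and 0.0022 (SE 0.09, 0.11 and 0.12). These were -0.028, -0.028 and -0.026 with library size in place of TMM, so their direction is not established. The median log2 fold change of the 9 was 0.16 in homozygous and 0.17 in heterozygous mice, and that of all genes was -0.0048 and -0.0058. Both comparisons use the same 6 controls. Of the members, 3 had an unadjusted p under 0.05 in homozygous mice and 5 in heterozygous mice, beside 8.06% and 5.29% of all genes.

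**Figure D1:**
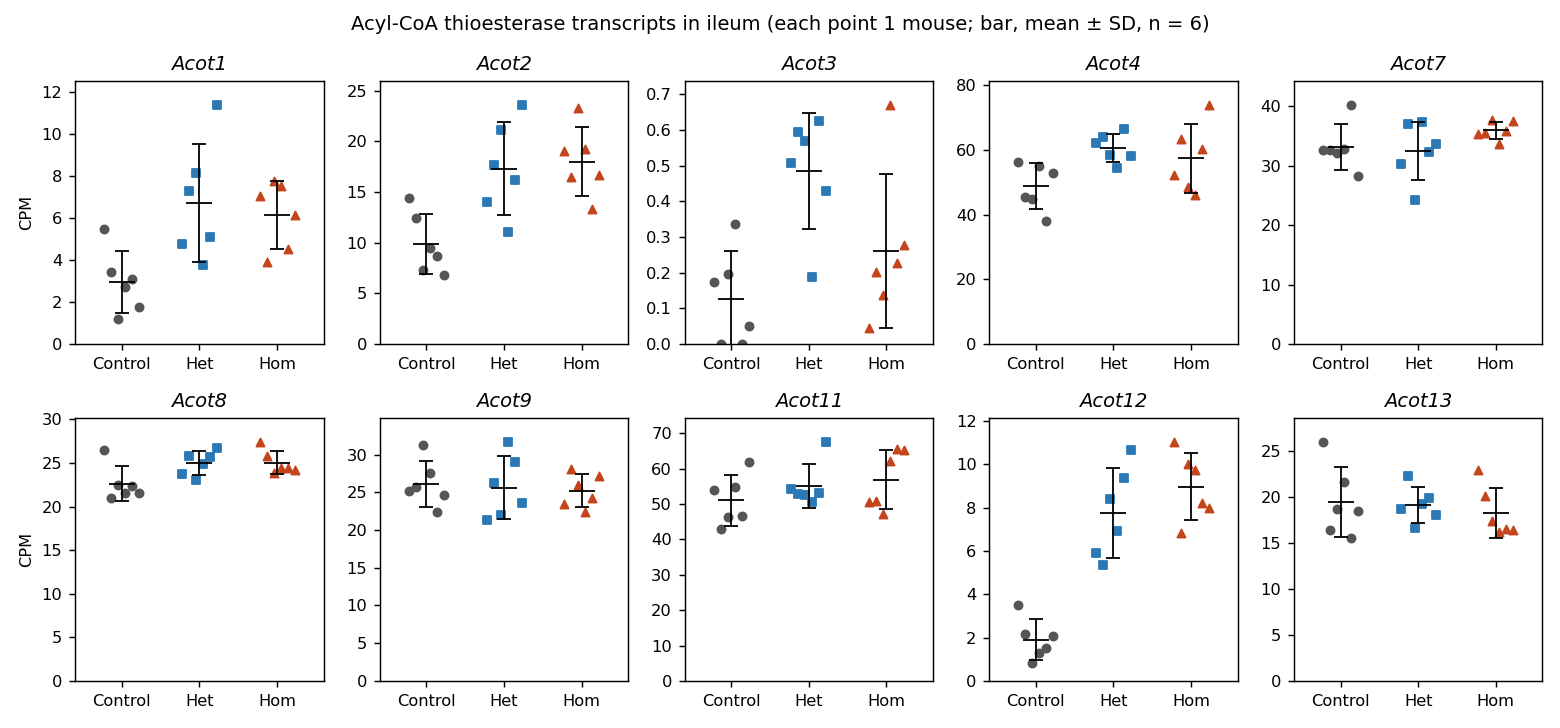
CPM of each of the 10 genes on a linear axis from 0 in 6 control, 6 heterozygous (Het) and 6 homozygous (Hom) libraries; each point is 1 mouse and bars show mean ± SD. For *Acot12* the highest control, at 3.52 CPM, lies below the lowest heterozygous library, at 5.35 CPM, and the lowest homozygous library, at 6.85 CPM.

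*Acot12* encodes a cytosolic thioesterase that hydrolyses acetyl-CoA to acetate and CoA. It lies on chromosome 13 (GRCm38, 13:91741512-91786148, plus strand; ENSMUSG00000021620) and overlaps the antisense gene *4833422C13Rik*, which was at 0.38 to 1.21 CPM in all libraries. In controls it ranged from 0.830 to 3.52 CPM with a median of 1.79. Heterozygous libraries spanned 5.35 to 10.7 CPM with a median of 7.66, and homozygous libraries 6.85 to 11.1 CPM with a median of 8.98. No IEC-*Ppara* library overlapped the controls, whereas heterozygous and homozygous libraries did overlap. Over all tested genes, 0.593% had every homozygous library above every control and 0.293% had every heterozygous library above every control.

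The counts behind these values summed to 508 over the controls, 2079 over the heterozygous and 2387 over the homozygous libraries. The log2 fold change of *Acot12* was 2.23 (SE 0.28, adjusted p = 0.000166, edgeR) in homozygous mice, with a 95% confidence interval of 3.15-fold to 7.04-fold. In heterozygous mice it was 2.06 (SE 0.28, adjusted p = 0.000707, edgeR), with an interval of 2.80-fold to 6.23-fold. Ordered from the highest rise to the deepest fall in log2 fold change, it stood 11th in homozygous and 10th in heterozygous mice of the 12645 genes. *Acot12* is on the list of changed genes that the study drew from these same samples, so its call is not independent evidence.

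*Acot12* passed the threshold also without the libraries highest in B cell markers and with smooth muscle markers as a covariate. No such fit was made for T cell or hepatocyte markers. Without the 4 libraries highest in B cell markers, its log2 fold change was 2.01 (adjusted p = 0.00476, edgeR) in homozygous and 2.00 (adjusted p = 0.00703) in heterozygous mice. With the smooth muscle markers as a covariate it was 2.29 (adjusted p = 0.00038) and 2.05 (adjusted p = 0.00079). Hepatocyte markers were also examined, since *Acot12* is well known from liver. Of 8 listed, 3 passed the filter (*Ttr*, *Cyp2e1* and *Tat*). *Serpina1a*, *Apoh*, *Fgb*, *Hpx* and *Alb*, the gene of serum albumin, did not. The summed level of all 8 was 17.8 to 82.0 CPM in controls (median 25.5), with 13.9 to 98.4 for heterozygous (median 19.7) and 23.6 to 113 for homozygous mice (median 57.8). Of the 3 tested, 0 changed in either IEC-*Ppara* group by edgeR or DESeq2, with 0 at an unadjusted p under 0.05, and their median log2 fold change was 0.72 in homozygous and 0.16 in heterozygous mice. The part of this list in the rise of *Acot12* was not tested.

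The second copy of the transgene was not accompanied by a detectable further rise. *Acot12* in homozygous against heterozygous mice stood at 1.13-fold, with a 95% confidence interval of 0.77-fold to 1.65-fold (adjusted p = 0.88, edgeR). *Ppara* itself had a log2 fold change of 0.59 between these groups, with an interval of 1.17-fold to 1.93-fold. It did not pass the threshold either (unadjusted p = 0.00303, adjusted p = 0.485, edgeR). Against the midpoint of control and homozygous mice on the log scale, heterozygous *Acot12* lay 0.94 higher (SE 0.22, log2), with an unadjusted p of 0.000471 and an adjusted p of 0.53 by edgeR, where 0.0316% of all genes were called and 5.05% had an unadjusted p under 0.05. That difference passed the threshold by DESeq2 (adjusted p = 0.0459) and in edgeR without control replicate 1 (log2 difference 1.08, adjusted p = 0.0385). *Ppara* itself lay 0.67 above the same midpoint (SE 0.15, log2, unadjusted p = 0.000233, adjusted p = 0.369, edgeR). A level that rises by equal steps of CPM per allele also lies above a log midpoint, so this difference alone does not show a plateau.

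The promoter sequence of *Acot12* was read because PPARα with RXR binds a direct repeat of AGGTCA units separated by 1 base, here written AGGTCANAGGTCA and searched on both strands. RefSeq promoter windows of GRCm38.p6, from 250 bases before to 50 bases after each gene start, were found for 9 of the 10 members. No member held an exact match, which 0.0396% of 32851 promoter windows did. *Acot12* held a match with 1 mismatch, C5G counted from the 5′ end of the motif, on the minus strand at chr13:91741411-91741423, 110 bases before the RefSeq gene start, which lies within the gene as the count files place it, a few bases after its first base. Such a match with at most 1 mismatch was present in 0.554% of all windows. *Acot4* came next with 2 mismatches, A1C and T4C, at chr12:84038366-84038378 on the minus strand, 13 bases before the RefSeq gene start, and 3.86% of windows were at least as close. *Acot2* is shown for comparison with a site of 3 mismatches (G3C, T4A and G10C) at chr12:83987803-83987815 on the plus strand, a closeness that 24.6% of windows reached. The sites are printed 5′ to 3′ on the strand of the match, with the 13 bases aligned to the motif in capitals and 8 flanking bases on each side in lower case.
*Acot12*: tgcttaggAGGTGAGAGGTCAgggtccta
*Acot4*: gcacagacCGGCCAAAGGTCAtgcttcgg
*Acot2*: gctcagcaAGCACACAGCTCAgtctaagg
Of the other members with a window, 2 had a closest match of 3 mismatches, 3 of 4 mismatches and 1 of 5 mismatches. A match of letters is a description of the window and not a measured binding site.

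*Acot2* and *Acot1* are neighbours on chromosome 12 and encode type I enzymes for long-chain acyl-CoA, the first in the mitochondrial matrix and the second in the cytosol. *Acot2* (ENSMUSG00000021226) lies at 12:83987861-83993873 and *Acot1* (ENSMUSG00000072949) at 12:84009490-84018371, both on the plus strand. Their sequences are alike: of the windows of 150 bases, the length of a read, that tile their transcripts, 10.2% for *Acot2* were identical to *Acot1* and 5.5% for *Acot1* were identical to *Acot2*. Only uniquely aligned, unambiguous reads were counted, so reads confined to such windows are not in the counts and the levels of both genes are uncertain.

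In *Acot2*, controls ranged from 6.85 to 14.4 CPM with a median of 9.08, heterozygous libraries from 11.1 to 23.6 CPM with a median of 16.9, and homozygous libraries from 13.3 to 23.3 CPM with a median of 17.9. The ranges overlapped, although 5 of 6 homozygous and 4 of 6 heterozygous libraries lay above the highest control. The log2 fold change was 0.87 (SE 0.19, adjusted p = 0.0534, edgeR) in homozygous and 0.84 (SE 0.19, adjusted p = 0.089) in heterozygous mice, or 1.83-fold and 1.79-fold. DESeq2 gave adjusted p-values of 0.00156 and 0.00401, and DESeq2's size factors in edgeR gave 0.0491 in homozygous mice. *Acot2* also passed the threshold in homozygous mice without control replicate 1 (adjusted p = 0.00971), heterozygous replicate 4 (0.0229), heterozygous replicate 6 (0.0401) or homozygous replicate 5 (0.0391). In heterozygous mice it did so without control replicate 1 (adjusted p = 0.0154) or heterozygous replicate 4 (0.0203).

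*Acot1* was lower and more variable. Controls spanned 1.22 to 5.47 CPM with a median of 2.90, heterozygous libraries 3.76 to 11.4 CPM with a median of 6.20, and homozygous libraries 3.93 to 7.75 CPM with a median of 6.59. Above the highest control lay 4 of 6 homozygous and 3 of 6 heterozygous libraries. The log2 fold change was 1.06 (SE 0.31, adjusted p = 0.242, edgeR) in homozygous and 1.22 (SE 0.31, adjusted p = 0.184) in heterozygous mice. The latter passed the threshold by DESeq2 (adjusted p = 0.0177) and in edgeR without control replicate 1 (adjusted p = 0.0267). In homozygous mice DESeq2 gave an adjusted p of 0.0556.

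**Figure D2:**
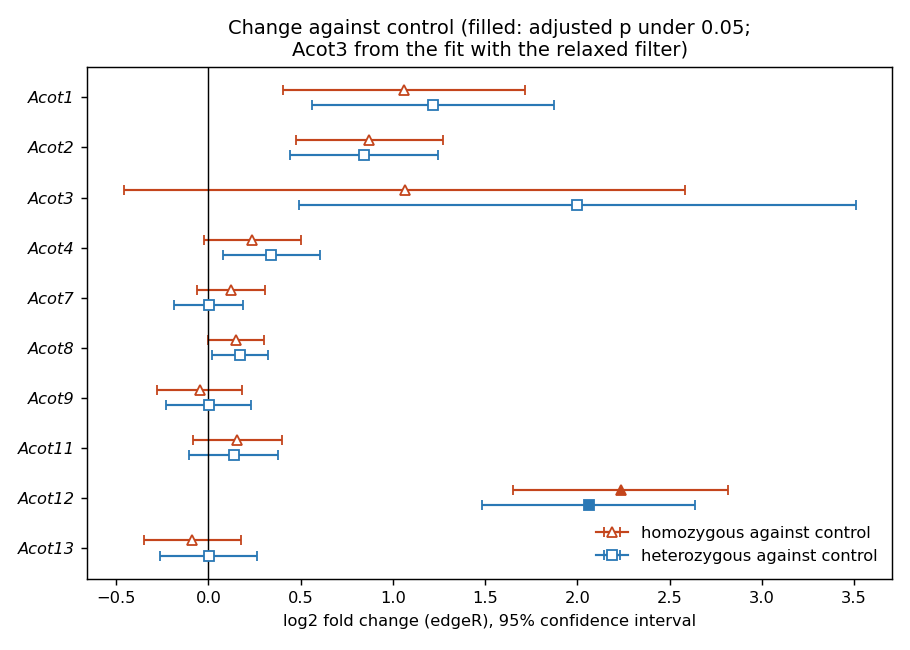
log2 fold change against control by edgeR with 95% confidence intervals for homozygous (triangles) and heterozygous (squares) mice; filled symbols have an adjusted p under 0.05. The *Acot12* intervals begin at 1.65 and 1.48, and the wide *Acot3* intervals come from the fit with the relaxed filter.

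The levels of *Acot1* and *Acot2* were also compared among mice of 1 genotype. On log2 CPM, Pearson's r between them was 0.90 in controls (exact permutation p = 0.0139, n = 6), 0.97 in heterozygous mice (exact p = 0.00278) and 0.79 in homozygous mice (exact p = 0.0556). Spearman's rho was 0.89 (exact p = 0.0333), 1 (exact p = 0.00278) and 0.94 (exact p = 0.0167). P-values were adjusted over the 9 relations tested within groups, 3 gene pairs in 3 groups. The adjusted Pearson p-values for this pair were 0.0625, 0.025 and 0.105 and the Spearman p-values 0.1, 0.025 and 0.075 (two-sided exact permutation tests). With this adjustment the relation passed 0.05 in heterozygous mice and missed it in controls and homozygous mice. Correlations over all 18 libraries were also computed for every pair of tested members, without a test, and are not part of the adjustment. When the 2 libraries of each group farthest from its median *Acot1* level were left out, r was 0.88, 0.92 and 0.88. Reads confined to the windows shared by both genes are not in these counts, and the part of other sequence likeness in this relation was not tested.

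*Acot12* was set against the same pair within groups. Its r with *Acot1* was 0.79 in controls, 0.45 with 1 transgene allele and 0.86 with both (exact permutation p = 0.0583, 0.353 and 0.0306, n = 6), with adjusted p-values of 0.105, 0.353 and 0.0917. Spearman's rho was 0.83, 0.49 and 0.77 (exact p = 0.0583, 0.356 and 0.103, adjusted p = 0.131, 0.356 and 0.185). Without the 2 farthest libraries, which leaves 4 per group and a narrower range of *Acot1*, r was -0.20, -0.032 and 0.72. With *Acot2*, r was 0.68, 0.54 and 0.63 and rho 0.60, 0.49 and 0.66, and the exact permutation p-values were all 0.128 or more. Without the 2 farthest libraries r was -0.16, 0.35 and 0.93, again over 4 libraries per group. These pairs were chosen after their fold changes had been seen.

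**Figure D3:**
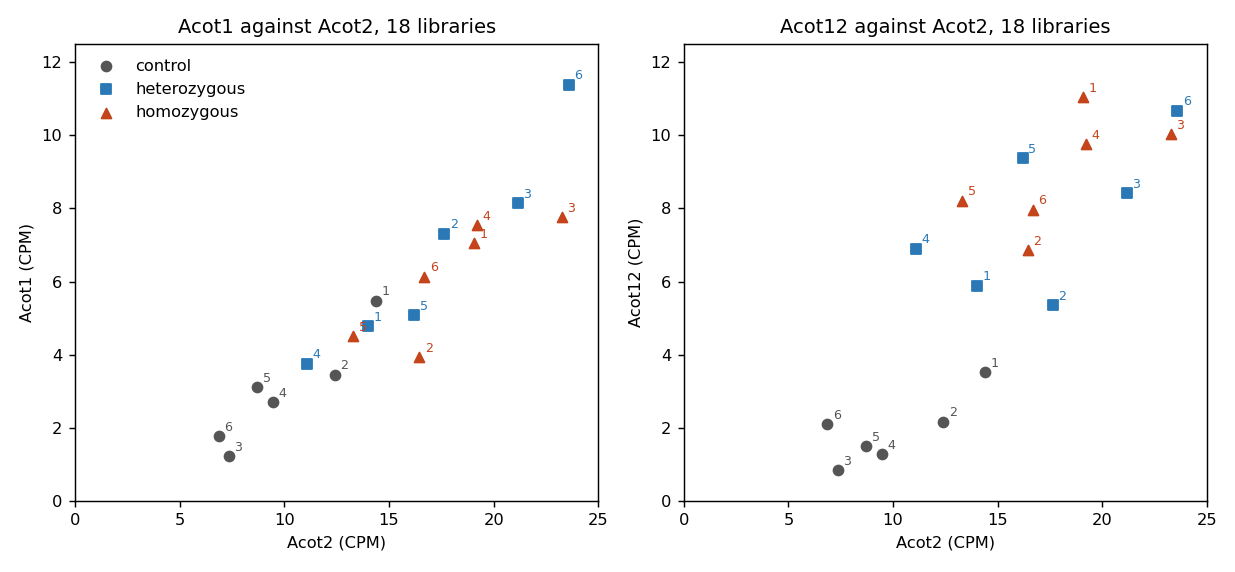
CPM of *Acot1* (left) and *Acot12* (right) against CPM of *Acot2* in 18 libraries on linear axes, with the replicate number beside each point. *Acot1* and *Acot2* lie along 1 line across groups, from 1.22 and 7.34 CPM in control replicate 3 to 11.4 and 23.6 CPM in heterozygous replicate 6, whereas *Acot12* separates the controls from both IEC-*Ppara* groups.

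Some mice stood at the edge of their group for several members, given as a description with no share over all genes beside it. The members are not independent: over deviations from the group means, r was 0.90 between *Acot1* and *Acot2*. Control replicate 1 was the highest control for 6 of the 10 genes (*Acot1*, *Acot2*, *Acot4*, *Acot8*, *Acot12* and *Acot13*), and heterozygous replicate 6 was the highest of its group for 5 (*Acot1*, *Acot2*, *Acot8*, *Acot11* and *Acot12*). Heterozygous replicate 4 was the lowest of its group for 5 genes and the highest for 2. In summed adipocyte markers, heterozygous replicates 4 and 6 were at 584 and 490 CPM and the rest of the group at 27.7 to 52.6. Controls spanned 25.5 to 639 CPM and homozygous libraries 51.6 to 505 in this list. Summed hepatocyte markers were at 91.5 and 98.4 CPM in heterozygous replicates 4 and 6 and at 13.9 to 24.3 in the rest of the group. The part of either list was not tested. The call of *Acot12* did not rest on 1 mouse: over 18 fits that each left out 1 library, its highest adjusted p was 0.00098 in homozygous and 0.0033 in heterozygous mice (edgeR).

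*Acot3* and *Acot4* stand next to each other in the same chromosome 12 cluster and encode peroxisomal enzymes, *Acot3* for long-chain acyl-CoA and *Acot4* for succinyl-CoA. *Acot4* lies at 12:84038379-84048601 and *Acot3* at 12:84052144-84060402, both on the plus strand. The annotated gene *Gm49366* overlaps a stretch of each and was at 0 counts in all 18 libraries, and the antisense gene *4732463B04Rik* overlaps both. Ambiguous reads were not counted and whether counting used strand is not given in the sources used here, so reads from the overlaps may be missing and the levels of both genes are uncertain.

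*Acot3* had 0 to 13 counts per control library, 8 to 30 per heterozygous library and 2 to 30 per homozygous library. It was at 0 counts in 2 controls, and 5 of 6 heterozygous libraries lay above the highest control. In a fit with a relaxed filter of at least 10 counts summed over libraries, its log2 fold change was 2.00 (SE 0.72) in heterozygous mice, with an unadjusted p of 0.0122 and an adjusted p of 0.774 over 17810 genes (edgeR), of which 0.225% were called. In homozygous mice the value was 1.06 (SE 0.73, adjusted p = 0.726, with 0.292% of all genes called), with a 95% interval of 0.73-fold to 6.00-fold, so a difference was not detectable at this depth.

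*Acot4* ranged from 38.2 to 56.1 CPM in controls (median 49.2), 54.4 to 66.4 CPM in heterozygous mice (median 60.3) and 46.0 to 73.8 CPM in homozygous mice (median 56.2). Although 5 of 6 heterozygous libraries exceeded every control, the log2 fold change was small, at 0.34 (SE 0.13, unadjusted p = 0.0141, adjusted p = 0.714, edgeR). In homozygous mice it was 0.24 (SE 0.13, adjusted p = 0.658).

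*Acot8* encodes the other peroxisomal member, with a broad range of substrates that includes bile acid CoA esters. It lies at 2:164792765-164804882 on the minus strand and overlaps *Snx21* at one end. It was at 21.0 to 26.5 CPM in controls (median 22.0), 23.0 to 26.8 CPM in heterozygous mice (median 25.3) and 23.9 to 27.5 CPM in homozygous mice (median 24.5). The ranges overlapped, as the highest control lay above 5 libraries of each IEC-*Ppara* group. The log2 fold change was 0.17 (SE 0.07, unadjusted p = 0.0282, adjusted p = 0.867, edgeR) in heterozygous and 0.15 (SE 0.07, adjusted p = 0.619) in homozygous mice.

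The remaining members showed no detectable difference between genotypes. *Acot13* (also called *Them2*), whose product handles long-chain acyl-CoA, was at 15.6 to 26.0 CPM in the control group, 16.7 to 22.3 in the heterozygous and 16.2 to 23.0 in the homozygous group. *Acot7*, which encodes a cytosolic enzyme best known from brain, was at 28.3 to 40.2, 24.2 to 37.5 and 33.7 to 37.7 CPM in the same order. *Acot9*, which encodes a mitochondrial enzyme, was at 22.5 to 31.3, 21.4 to 31.7 and 22.4 to 28.1 CPM. *Acot11* (also called *Them1*), known from brown fat, where cold induces it, was at 42.8 to 62.0, 50.7 to 67.7 and 47.1 to 65.6 CPM. All of these ranges overlapped. *Acot11* overlaps *Fam151a*, and 10.7% of its windows of 150 bases are shared with other transcripts, so its level is less certain than those of the other 3, which share none.

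Among these 4 genes, log2 fold changes ran from -0.087 for *Acot13* to 0.16 for *Acot11* in homozygous mice, with SE of 0.09 to 0.12 and adjusted p-values of 0.75 to 0.95 (edgeR). In heterozygous mice they ran from 0.0020 for *Acot7* and *Acot9* to 0.14 for *Acot11*, with adjusted p-values of 1.00. The 95% intervals in homozygous mice were 0.79-fold to 1.13-fold for *Acot13*, 0.96-fold to 1.24-fold for *Acot7*, 0.83-fold to 1.14-fold for *Acot9* and 0.94-fold to 1.32-fold for *Acot11*. None of the 9 tested members differed between homozygous and heterozygous mice by edgeR or DESeq2, and none had an unadjusted p under 0.05 in that comparison, in which 0.00791% of all genes were called and 7.61% had an unadjusted p under 0.05.

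Levels of different genes were compared per length, as FPKM, which divides by library total and exonic length. The order depends on this length, which was 744 bases for *Acot13* and 6674 for *Acot4*. Their mean CPM in controls, without it, was 19.5 and 48.8. The lengths of the isoforms expressed here were not examined. In controls *Acot13* was highest at 26.2 ± 5.14 FPKM (SD, n = 6), followed by *Acot7* at 15.6 ± 1.83, *Acot9* at 11.5 ± 1.33 and *Acot8* at 11.3 ± 1.01 FPKM. *Acot11* at 8.43 ± 1.17, *Acot4* at 7.31 ± 1.06 and *Acot2* at 4.49 ± 1.35 FPKM were in the middle of the order. *Acot1* at 0.753 ± 0.380, *Acot12* at 0.576 ± 0.286 and *Acot3* at 0.0367 ± 0.0389 FPKM came last. Among neighbours in this order, the libraries of *Acot13* and *Acot7*, of *Acot8* and *Acot11*, of *Acot2* and *Acot1* and of *Acot12* and *Acot3* did not overlap, and all other neighbours did.

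In IEC-*Ppara* mice *Acot12* stood above *Acot1* in this order. It was at 2.36 ± 0.631 FPKM in heterozygous mice, where *Acot1* was at 1.72 ± 0.716, and at 2.73 ± 0.473 FPKM in homozygous mice, where *Acot1* was at 1.57 ± 0.411. The libraries of these genes overlapped in heterozygous mice and did not in homozygous mice. Even then *Acot12* was far below *Acot13*, which was at 24.6 ± 3.64 FPKM in homozygous mice.

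**Figure D4:**
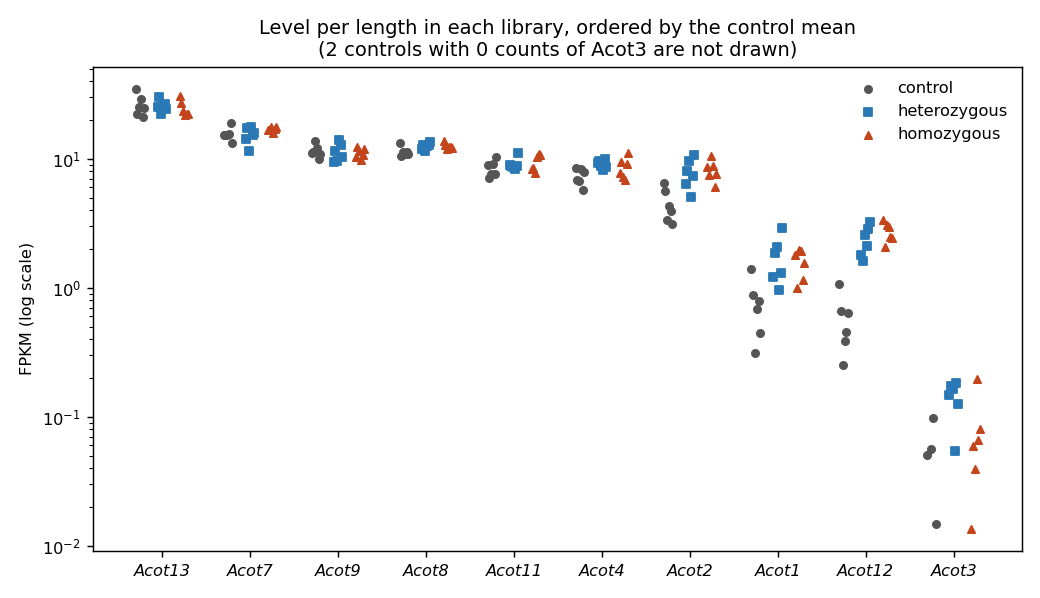
FPKM of each gene on a log axis in every library, with genes ordered by the control mean and the 3 groups side by side; the 2 controls with 0 counts of *Acot3* cannot be drawn on this axis. The order runs from *Acot13* at 26.2 FPKM to *Acot3* at 0.0367 FPKM in controls.

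Summed over the 10 genes, the level was 86.2 ± 8.21 FPKM (SD, n = 6) in controls, 95.1 ± 6.30 FPKM in heterozygous and 95.7 ± 4.04 FPKM in homozygous mice, and the ranges of these sums overlapped. *Acot12* made up 0.658% ± 0.278 of this sum in controls, 2.48% ± 0.633 in heterozygous and 2.85% ± 0.483 in homozygous mice. The 4 members in the chromosome 12 cluster together made up 14.5% ± 1.65, 19.8% ± 3.01 and 19.3% ± 1.38. These shares describe RNA and not enzyme activity.

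Sex was examined since the groups differed in their share of females. None of the 9 members differed between females and males after adjustment for genotype by edgeR, where 0.0554% of all genes were called, nor by DESeq2, and 1 had an unadjusted p under 0.05, beside 3.39% of all genes. That gene was *Acot4*, 0.22 higher in females (SE 0.10, log2, unadjusted p = 0.0357, adjusted p = 1.00). In controls *Acot4* was at 52.9 to 56.1 CPM in the 3 females and 38.2 to 45.5 CPM in the 3 males. The sexes overlapped in heterozygous mice, with females at 62.1 to 64.0 and males at 54.4 to 66.4 CPM, and in homozygous mice, with females at 60.3 to 63.4 and males at 46.0 to 73.8 CPM.

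*Acot12* was higher in IEC-*Ppara* mice of both sexes. Female libraries had 1.27 to 3.52 CPM without Cre, 5.35 to 5.89 with 1 transgene allele and 6.85 to 8.21 with both. Male libraries had 0.830 to 2.16, 6.90 to 10.7 and 7.97 to 11.1 CPM in the same order. In male libraries alone the log2 fold change was 2.70 (adjusted p = 0.0013, edgeR) in homozygous and 2.63 (adjusted p = 0.00168) in heterozygous mice. In the 7 female libraries alone it was 1.72 (adjusted p = 0.752) and 1.27 (adjusted p = 1.00).

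The change in females less the change in males, tested as an interaction across all genes after these values had been seen, was -0.98 (SE 0.49, log2, unadjusted p = 0.062) in homozygous and -1.35 (SE 0.49, unadjusted p = 0.0147) in heterozygous mice. The adjusted p-values were 1.00 and 0.437 (edgeR), so the sexes were not shown to differ. *Acot1* in homozygous mice had a log2 fold change of 1.47 (adjusted p = 0.231, edgeR) in males alone and 0.37 (adjusted p = 1.00) in females alone, and in heterozygous mice 1.51 (adjusted p = 0.104) and 0.86 (adjusted p = 1.00). Its change in females less that in males was -1.09 (SE 0.64, adjusted p = 1.00) in homozygous and -0.65 (SE 0.63, adjusted p = 0.902) in heterozygous mice.

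Other genes that make, use or cleave acyl-CoA were counted in lists, to be read beside all genes tested: edgeR called 0.411% in homozygous and 0.293% in heterozygous mice, 8.06% and 5.29% had an unadjusted p under 0.05, and DESeq2 called 136 and 80 genes. Of 9 further thioesterase genes tested, 0 changed in homozygous mice by edgeR or DESeq2, with 0 at an unadjusted p under 0.05. In heterozygous mice 0 changed by either tool, with 1 at an unadjusted p under 0.05. *Ppt2*, a lysosomal thioesterase, was lowest in p in homozygous mice, with a log2 fold change of -0.13 (SE 0.10, adjusted p = 0.763). *Acot6*, named as the neighbour in the chromosome 12 cluster, had 0.044 (SE 0.20). The median log2 fold change of this list was -0.011 in homozygous mice.

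Of 13 acyl-CoA synthetase genes tested, which activate fatty acids and so run opposite to the thioesterases, 1 rose in homozygous and 1 in heterozygous mice, and DESeq2 called 2 in each group. *Acsl3*, a long-chain acyl-CoA synthetase, rose in homozygous mice with a log2 fold change of 0.82 (SE 0.18, adjusted p = 0.046, edgeR) and had 0.81 (adjusted p = 0.0672) in heterozygous mice. *Slc27a2*, a very long-chain acyl-CoA synthetase and fatty acid transporter, rose in heterozygous mice with 0.64 (SE 0.13, adjusted p = 0.04) and had 0.50 (adjusted p = 0.144) in homozygous mice. The list median was 0.078 in homozygous and 0.17 in heterozygous mice.

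Of 12 genes for the synthesis and breakdown of CoA, 1 rose in each group, and DESeq2 called 2 in homozygous and 1 in heterozygous mice. The gene called by edgeR was *Vnn1*, a pantetheinase that releases pantothenate, the precursor of CoA, with a log2 fold change of 0.76 (SE 0.12, adjusted p = 0.00313, edgeR) in homozygous and 0.64 (SE 0.12, adjusted p = 0.0257) in heterozygous mice. *Vnn1* was at 133 ± 23.2 CPM (SD, n = 6) in controls, 203 ± 28.4 CPM in heterozygous and 226 ± 25.7 CPM in homozygous mice. *Ppcs*, which acts in CoA synthesis, had 0.43 (SE 0.12, adjusted p = 0.172) in homozygous mice. The list median was 0.021 in homozygous and 0.019 in heterozygous mice.

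In peroxisomal β-oxidation, 3 of 21 genes tested rose in homozygous and 2 in heterozygous mice, and 0 fell. An unadjusted p under 0.05 was reached by 14 in each group, and DESeq2 called 7 and 9. *Acaa1b*, a peroxisomal thiolase, had a log2 fold change of 2.35 (SE 0.34, adjusted p = 0.00104, edgeR) and 2.08 (SE 0.34, adjusted p = 0.00509). *Hsd17b4*, the D-bifunctional protein, had 0.65 (SE 0.10, adjusted p = 0.00166) and 0.59 (SE 0.10, adjusted p = 0.0074). *Decr2*, a peroxisomal dienoyl-CoA reductase, rose in homozygous mice with 0.39 (SE 0.07, adjusted p = 0.00993) and had 0.28 (adjusted p = 0.168) in heterozygous mice. The list median was 0.31 in homozygous and 0.28 in heterozygous mice.

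In mitochondrial β-oxidation, 2 of 18 genes tested rose in homozygous and 3 in heterozygous mice, and 0 fell. An unadjusted p under 0.05 was reached by 13 and 14, and DESeq2 called 7 in each group. *Slc25a20*, the carnitine-acylcarnitine carrier, had a log2 fold change of 0.78 (SE 0.09, adjusted p = 3.68e-05, edgeR) and 0.63 (SE 0.08, adjusted p = 0.000784). *Acadvl*, the very long-chain acyl-CoA dehydrogenase, had 0.58 (SE 0.08, adjusted p = 0.000443) and 0.53 (SE 0.08, adjusted p = 0.00147). *Etfdh*, which passes electrons to the respiratory chain, rose in heterozygous mice with 0.43 (SE 0.09, adjusted p = 0.0478) and had 0.37 (adjusted p = 0.112) in homozygous mice. The list median was 0.26 and 0.30. Between homozygous and heterozygous mice, 0 genes of any of these 5 lists were called by edgeR or DESeq2, with 0 to 2 per list at an unadjusted p under 0.05.

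**Figure D5:**
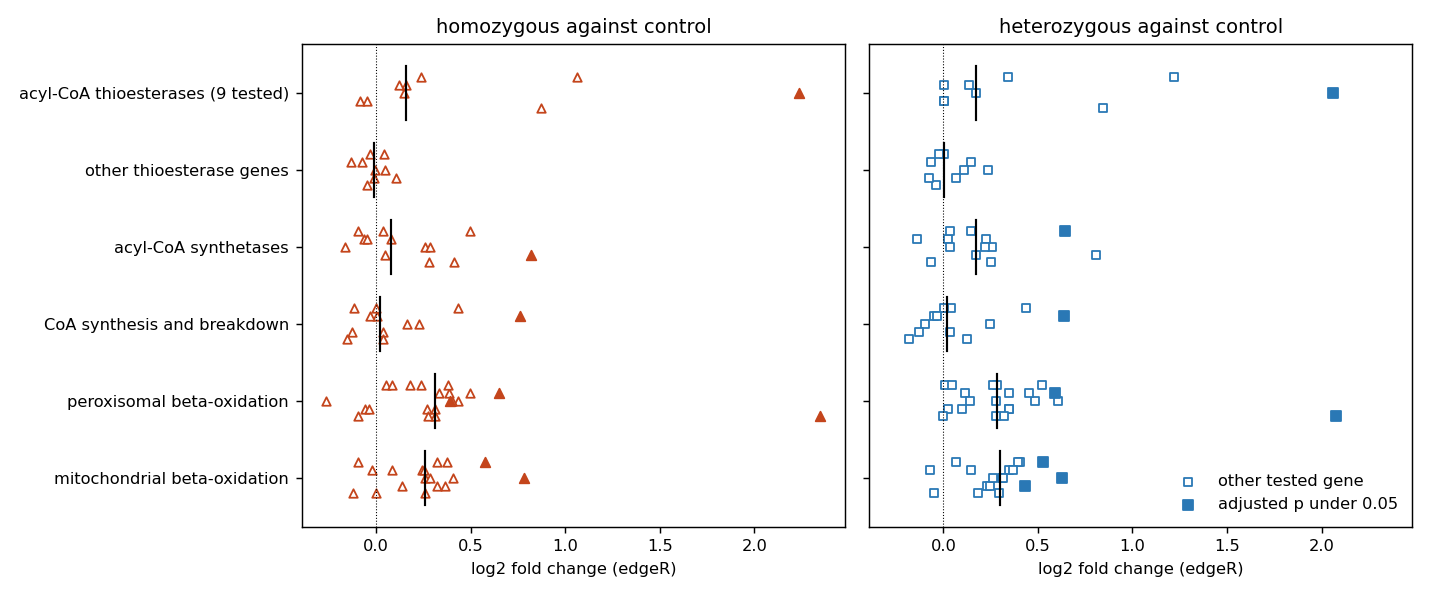
log2 fold change by edgeR of every tested gene in the thioesterase set and 5 related lists, for homozygous (left) and heterozygous (right) mice against the same controls; filled symbols have an adjusted p under 0.05 and vertical bars mark medians. *Acot12* at 2.23 and 2.06 and *Acaa1b* at 2.35 and 2.08 stand farthest from 0.

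The genes with the pattern most like that of *Acot12* were sought among the 12636 other tested genes by Pearson's r of log2 CPM over 18 libraries, given as a description. They were *Slc25a20* (r = 0.96), *Vnn1* (r = 0.95) and *Cyp2c66*, a cytochrome P450 gene (r = 0.94). These values include the difference between the groups. Over deviations from the group means, which leave that difference out, they were *Vnn1* (r = 0.81), *Acad11*, an acyl-CoA dehydrogenase (r = 0.80), and *Arfgap3* (r = 0.79). *Vnn1* was in both sets.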

How the data were processed

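The authors selected poly-A RNA, sequenced paired ends of 150 bases, aligned them with STAR to the Ensembl primary assembly (GRCm38) and counted uniquely aligned, unambiguous reads with featureCounts; Salmon, Subread and bcl2fastq are also named in the submitters' processing notes. The deposited counts are not normalized. CPM, also from the authors, scales each count to the library total, and their deposited FPKM values further divide by exonic length.

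A level above 3 CPM in 4 or more libraries was required (13709 genes), and the 12645 protein-coding ones were compared with edgeR 4.0.16 in R 4.3.3 (glmQLFit, glmQLFTest, TMM, all 18 libraries in 1 fit, no covariates), with Benjamini-Hochberg adjustment over all of them at 0.05. More genes passed this filter in the files than the study's methods state, for a reason not settled here, and all shares and adjusted p-values use the number given here. For female against male, sex was added to the genotypes. The pipeline was tested on simulated data: at a log2 change of 1 it found 81 of 100 changed genes for homozygous and 78 of 100 for heterozygous mice against control, with 12 false calls each over both fold sizes simulated. Simulated counts were drawn independently for each gene, without the differences in cell type markers between libraries seen here. These rates therefore need not hold for the tissue libraries. DESeq2 1.42.0, other scalings, filters, covariates, a replicate block and leaving out each library were alternatives. Fits by sex, without the 4 libraries highest in B cell markers, and the interaction with sex were added after seeing the data.

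All 10 members are named, and for each list at most the 3 genes of lowest p in homozygous mice; *Acot6* was added outside this rule, as a neighbour, after its values were seen. Members and lists were chosen with earlier results of these data known. Libraries of a group differed by more than sampling noise (chi-square per degree of freedom 22.4 or more). Overlaps and shared windows used GENCODE transcripts of GRCm38. Deposited moderated log2 CPM values were not used here, as their prior count is not given in the sources used.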

Additional observations from a re-analysis of the deposited data

Results flagged for a closer look

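For each of the 10 genes, the highest and lowest library of each group of 6 was compared with its nearest neighbour by Dixon's test at the 95% level, in 30 groups in all, and 4 libraries stood apart; chance alone flags about 1 in 20 groups. *Acot8* was at 26.5 CPM in control replicate 1, with the next control at 22.5 CPM. *Acot7* was at 40.2 CPM in control replicate 5, with the next control at 32.8 CPM. *Acot11* was at 67.7 CPM in heterozygous replicate 6, with the next library of that group at 54.4 CPM. *Acot3* was at 0.67 CPM in homozygous replicate 4, with the next at 0.278 CPM, a difference between 30 and 13 counts.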

How the results depend on the processing

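Of 1260 fold changes of members recomputed under the alternatives, 1177 kept their direction and side of the threshold, 13 newly passed it, 2 no longer did and 68 changed sign; none of those that changed sign was called. *Acot12* passed in 12 of 13 alternatives in each IEC-*Ppara* group, all but the female libraries alone (log2 fold change 1.72 and 1.27). The number of members called in homozygous mice was 2 with DESeq2's size factors and with DESeq2, 0 in female libraries alone and 1 to 2 when each library was left out in turn. In heterozygous mice it was 3 with DESeq2, 0 in female libraries alone and 1 to 3 on leaving out a library. Against the midpoint it was 1 with DESeq2 and 0 to 1 on leaving out a library. The main edgeR fit called 0.0316% of all genes against the midpoint, and all genes were not counted there under the alternatives. Causes were not tested; the fits in females have 7 libraries. *Acot3* had 0 to 30 counts per library, and its 95% interval in homozygous mice ran from 0.73-fold to 6.00-fold.

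Over all genes, 52 were called in homozygous mice, against 31 without the 4 libraries highest in B cell markers, 6 in females alone and 136 by DESeq2. In heterozygous mice 37 were called, against 23 from only the 12 libraries compared, 15 without the 4 libraries, 124 in males alone, 0 in females alone and 80 by DESeq2. In 10 of the alternatives, DESeq2's size factors among them, 44 to 61 were called in homozygous mice. In 7, again with these size factors, 31 to 40 were called in heterozygous mice. On leaving out each library in turn, 43 to 65 were called in homozygous and 25 to 53 in heterozygous mice. Between homozygous and heterozygous mice 1 was called, against 9 by DESeq2, 0 to 2 on leaving out a library, and 0 with DESeq2's size factors, the relaxed filter, at least 10 counts in every library, only the 12 libraries, sex, smooth muscle or B cell markers as a covariate, the replicate block, without the 4 libraries, and in either sex alone.

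The sample titles give replicate numbers without saying whether these pair the mice. Over 18 pairs of libraries with the same number, the correlation of deviations ran from -0.606 to 0.642, and 9 were over 0.1. Pairs with different numbers were not compared, so these values do not settle whether the numbers pair the mice. With the replicate block 22 genes were called in heterozygous mice, and *Acot12* had log2 fold changes of 2.30 (adjusted p = 0.00198, edgeR) and 2.12 (adjusted p = 0.00711) in homozygous and heterozygous mice. The block turned *Acot9* to 0.0019 in female against male, and to -0.0013 and *Acot7* to -0.0021 in heterozygous mice.

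The other changes of sign were near 0 on the log2 scale. In homozygous against control, *Acot9* was 0.040 without the 4 libraries and 0.046 in females, and *Acot13* was 0.12 in males. In heterozygous against control, *Acot7*, *Acot9* and *Acot13* were -0.028, -0.028 and -0.026 with library size in place of TMM, *Acot7* and *Acot9* were -0.0019 and -0.0033 with sex as a covariate, *Acot7* and *Acot13* were -0.042 and -0.10 without the 4 libraries, *Acot7* was -0.073 in males, and *Acot9*, *Acot11* and *Acot13* were -0.12, -0.094 and -0.11 in females. In homozygous against heterozygous, *Acot2* was -0.0072 with the smooth muscle covariate and -0.054 in females, *Acot8* was 0.0040 with library size and 0.049 in females, *Acot9* was 0.17 in females, and *Acot11* was -0.0092 with the B cell covariate and -0.042 in males. Against the midpoint, *Acot9* was -0.0025 with library size and -0.15 in females, and *Acot11* was -0.12 in females.

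Leaving out each library in turn gave these ranges where the sign changed. In homozygous against control, *Acot9* ran from -0.091 to 0.022 and *Acot13* from -0.16 to 0.018. In heterozygous against control, *Acot7* ran from -0.032 to 0.075, *Acot9* from -0.055 to 0.071 and *Acot13* from -0.058 to 0.11. In homozygous against heterozygous, *Acot1* ran from -0.28 to 0.049, *Acot2* from -0.068 to 0.13, *Acot8* from -0.048 to 0.0055, *Acot9* from -0.10 to 0.019 and *Acot11* from -0.029 to 0.080. Against the midpoint, *Acot7* ran from -0.098 to 0.014, *Acot9* from -0.037 to 0.075 and *Acot11* from -0.0015 to 0.11. In female against male, *Acot7* ran from -0.065 to 0.013, *Acot8* from -0.00041 to 0.061, *Acot9* from -0.084 to 0.025 and *Acot12* from -0.29 to 0.020.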
